A study of Cucumis sativus with 8 samples.

Results

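Among the 17783 cucumber genes measured, 200 were taken as the genes raised by CsIND RNA interference in leaf vein with little change in young fruit. They were chosen from the measured values. A gene had to average at least 1 RPM (reads per 1000000 reads counted on genes) in WT vein and at least 5 RPM in WT fruit. With 0.5 RPM added to both, neither of its fruit means, CsIND-RNAi or WT, could be under 0.8 times the other. The 12332 genes that passed were ranked by the lower CsIND-RNAi vein library over the higher WT vein library, and the 200 highest were kept. All 200 passed the filter on low values (at least 1 RPM in at least 2 libraries), as did 17778 genes of the table. RNA came from WT plants and CsIND-RNAi transgenic plants of the cucumber inbred line R1461, from leaf veins and from fruits 4 days before anthesis, with 2 biological replicates for each genotype and tissue and 8 libraries in all. The labels name the targeted gene CsIND and the study calls it CsIVP. The transgenic plants were of R5, 1 line of the RNAi construct, and were compared with WT, not with empty-vector plants, so line and construct cannot be told apart.

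Leaf veins carry the phloem, which exports sugars made in the leaf, and the xylem, which brings water and minerals. In cucumber and its relatives the phloem moves raffinose-family sugars such as stachyose beside sucrose. CsIVP is a basic helix-loop-helix transcription factor, a protein that binds DNA and changes the transcription of other genes, and RNA interference lowers a transcript through small RNAs made from a matching hairpin. In bulk tissue a higher level can come from more RNA per cell or from more cells of a type, and these cannot be told apart here.

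Between 18088985 and 22979345 reads per library were counted on genes. CsIVP (Csa6G483450) had 0 reads in all 4 vein libraries, which allows up to 0.166 RPM for counting error alone. It was at 42.3 and 52.1 RPM in the CsIND-RNAi fruit libraries against 49.98 and 38.3 RPM in the WT fruit libraries. Its level in these libraries thus does not tell the genotypes apart. In separate assays, qRT-PCR and an immunoblot, the study reported less CsIVP transcript and protein in R5 than in WT. The CsIND-RNAi vein libraries were over 2-fold apart from each other in 2650 genes, against 80 for WT vein, 419 for CsIND-RNAi fruit and 283 for WT fruit. Phloem genes that the study names (7 genes, among them APL and SIEVE-ELEMENT-OCCLUSION-RELATED 1) summed to 123 to 144 RPM over the vein libraries and 142 to 175 RPM over the fruit libraries, none at 0. In vein, 6 of the 7 were higher in both CsIND-RNAi libraries than in both WT libraries, beside 45.1% of all genes tested. The study listed these 7 as changed in vein on these same libraries, so nothing is read from that count. The 25 genes with photosynthesis words in the study's tables summed to 34765 and 31803 RPM in WT vein. In CsIND-RNAi vein replicates 1 and 2 they summed to 3244 and 18122 RPM. In fruit they summed to 4656 and 3906 RPM in CsIND-RNAi and 5547 and 5651 RPM in WT. Replicate 1 of CsIND-RNAi vein thus lay below every fruit library in this sum. All 25 were lower in both CsIND-RNAi vein libraries than in both WT vein libraries, none was at 0 in any library, and the study listed them as lowered on these same libraries. No photosynthesis or phloem gene of these lists is a member, and the part that this shift has in the members' levels was not tested.

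In vein, the median level of the members was 46.9 and 35.6 RPM in CsIND-RNAi replicates 1 and 2, against 7.99 and 8.77 RPM in those of WT. Both CsIND-RNAi libraries were above both WT libraries for all 200, which the rule demands and which held for 45.1% of all genes tested. The ratio of the lower CsIND-RNAi to the higher WT library ran from 2.63 to 14.6 with a median of 3.35. It was at least 3 for 143 members, at least 4 for 48 and at least 5 for 19. The median log2 fold change, CsIND-RNAi minus WT on the log2(RPM + 0.5) scale, was 2.08 for the members and 0.20 for all genes tested. With a threshold of 0.05 on limma's adjusted p (1 fit over 8 libraries) and a change of 2-fold or more, 200 of 200 members were called higher in CsIND-RNAi vein beside 14.0% of all genes tested. The rule used these same libraries, so nothing is read from that count.

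The highest ranked member was Csa4G618500, annotated as UDP-glucosyl transferase 71B6, which in Arabidopsis attaches glucose to the hormone abscisic acid. It stood at 92.3 and 96.5 RPM in CsIND-RNAi vein, 3.43 and 5.83 RPM in WT vein, 9.24 and 9.70 RPM in CsIND-RNAi fruit and 9.74 and 7.05 RPM in WT fruit. Its vein libraries lay far above all fruit libraries in CsIND-RNAi and below all of them in WT, with a log2 fold change in vein of 4.25 (standard error 0.26, n = 2 per group). The next member, Csa1G479110, has no annotation in the tables used and was at 43.7 and 24.6 RPM in CsIND-RNAi vein, against 1.16 and 1.59 RPM in WT vein. Its fruit libraries held 19.7 and 25.7 RPM in CsIND-RNAi and 24.6 and 24.7 RPM in WT, so WT vein was the low sample and CsIND-RNAi vein came to the fruit level or above. Csa7G391240, an alpha/beta-hydrolase, was at 58.4 and 37.1 RPM in CsIND-RNAi vein against 2.43 and 2.70 RPM in WT vein, with 26.1 and 28.4 and 18.3 and 27.6 RPM in the CsIND-RNAi and WT fruit libraries. Csa2G336130, a zeta-class glutathione S-transferase, an enzyme family that in plants acts in tyrosine breakdown, was at 133 and 84.8 RPM in CsIND-RNAi vein, against 3.93 and 7.33 RPM in WT vein. Its fruit libraries spread widely, at 9.03 and 14.9 RPM in CsIND-RNAi and 19.3 and 5.74 RPM in WT, and all stayed below the CsIND-RNAi vein level.

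Csa7G407800 encodes stachyose synthase, which makes the phloem sugar stachyose from raffinose. It was at 71.1 and 297 RPM in CsIND-RNAi vein replicates 1 and 2, 8.07 and 8.15 RPM in WT vein, 8.43 and 33.4 RPM in CsIND-RNAi fruit and 30.9 and 19.2 RPM in WT fruit. The WT vein libraries were nearly equal, while the CsIND-RNAi vein libraries were over 4-fold apart and yet both above every other library. The vein log2 fold change was 4.08 (standard error 0.80, n = 2 per group). Csa5G606810, with no annotation, had the highest vein level of all members, at 1976 and 817 RPM in CsIND-RNAi vein against 65.4 and 116 RPM in WT vein. Its fruit level was high in both genotypes, at 1196 and 889 RPM in CsIND-RNAi and 1001 and 937 RPM in WT, so again WT vein was the low sample. Hydroxyproline-rich glycoproteins are structural proteins of the plant cell wall, and 2 are among the 10 highest ranked members. Csa5G576580, ranked just before Csa5G606810, was at 32.8 and 22.9 RPM in CsIND-RNAi vein and 2.21 and 2.75 RPM in WT vein, and Csa5G571580, its neighbour in the order of the table's identifiers, at 96.9 and 109 RPM and 10.9 and 13.4 RPM. Csa4G308590 encodes clathrin light chain, part of the coat of endocytic vesicles, and was at 26.4 and 24.6 RPM in CsIND-RNAi vein against 2.49 and 3.23 RPM in WT vein. Its fruit libraries held 25.2 and 31.8 RPM in CsIND-RNAi and 29.4 and 25.2 RPM in WT, nearly the CsIND-RNAi vein level. The tenth, Csa5G577370, is annotated as nudix hydrolase 1, of a family that splits nucleotide derivatives, and was at 20.5 and 16.3 RPM in CsIND-RNAi vein and 1.88 and 2.12 RPM in WT vein. All 4 of its fruit libraries, at 21.6 and 22.6 RPM in CsIND-RNAi and 24.1 and 25.98 RPM in WT, stayed above both genotypes' vein libraries.

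**Figure D1:**
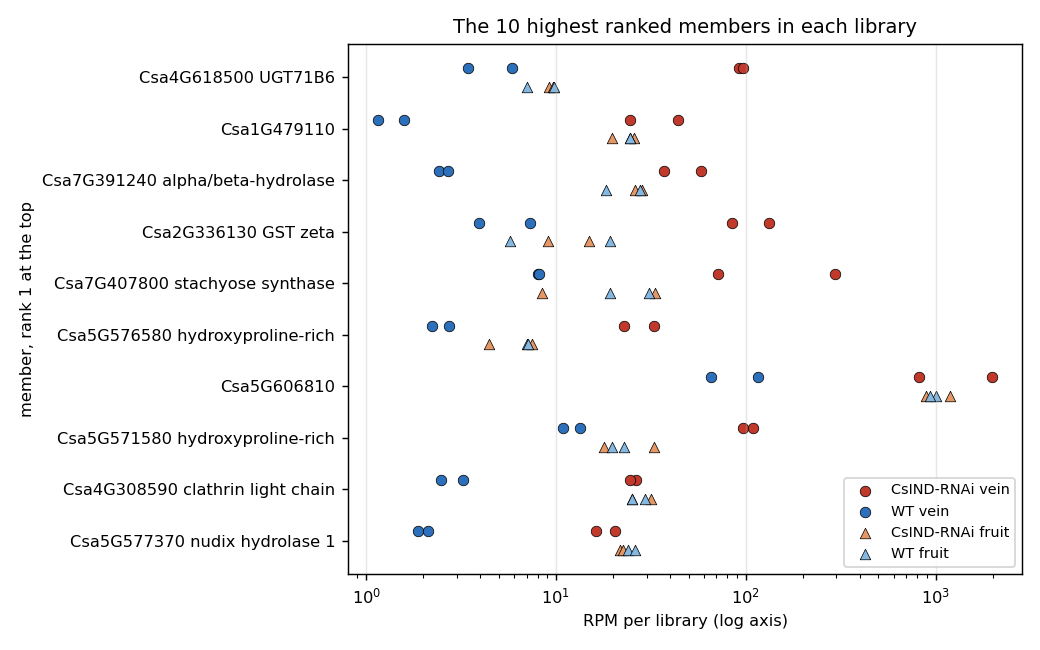
RPM in each of the 8 libraries (log axis) for the 10 highest ranked members, circles for vein and triangles for fruit, red shades for CsIND-RNAi and blue shades for WT. In every row both WT vein circles lie left of both CsIND-RNAi vein circles, from 6.42-fold to 14.6-fold apart between the nearest points with 0.5 RPM added, while the fruit triangles of the genotypes overlap in 9 of the 10 rows.

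The limit of the list is not a step in the data. The last 2 members, Csa3G094000 (no annotation) and Csa4G637700 (a ubiquitin-conjugating enzyme), had vein ratios of 2.632 and 2.629. The first genes left out, Csa6G194170 (no annotation) and Csa5G153070 (a protein of unknown function), both stood at 2.622. Nor are the members the genes most raised in vein. In all, 1111 genes of the series had a vein ratio at or above that of the last member, and the members were 18.0% of them. Of the others, 272 averaged under 1 RPM in WT vein, 196 averaged under 5 RPM in WT fruit, 431 were above the limit of the rule in CsIND-RNAi fruit and 12 were below it. With the fruit limit removed, 17 members stayed among the 200 highest, and 179 of those 200 had a WT fruit mean under 0.8 times the CsIND-RNAi fruit mean. The best member then ranked 36 and the last 643 of 14515 genes.

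In fruit, the median level of the members was 23.8 and 28.6 RPM in CsIND-RNAi replicates 1 and 2, against 24.3 and 24.7 RPM in those of WT. The CsIND-RNAi fruit libraries did not overlap the WT fruit libraries for 72 of 200 members, beside 46.6% of all genes tested. For 60 of these (30.0% of the members) CsIND-RNAi was the higher genotype, beside 23.2% of all genes tested and 18.0% of the genes inside the limits. For 12 (6.0%) it was the lower, beside 23.4% and 21.1%. Inside the limits of the rule the members leaned upward. The CsIND-RNAi fruit mean was above the WT fruit mean for 147 members, or 73.5%, against 46.7% of the 12332 genes that met the same limits. The median fruit ratio was 1.10 for the members and 0.992 for those genes, and the WT fruit mean was under 0.9 times the CsIND-RNAi fruit mean for 93 members while the reverse held for 20. In limma's fit 0 members passed the same thresholds in fruit beside 0.472% of all genes tested, as the limits of the rule make nearly certain. At an unadjusted p under 0.05 with no fold limit there were 2 members, both higher in CsIND-RNAi. There were 18 with edgeR's quasi-likelihood test, 12 with edgeR's exact test and 12 with DESeq2. The share of all genes at that level is not given here, so nothing is read from these counts. At the adjusted thresholds these tests called 0 members in fruit, beside 198, 561 and 459 of the 17778 genes tested.

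The vein change exceeded the fruit change at an adjusted p under 0.05 (limma, the difference between the tissues) for 183 of 200 members, beside 11.4% of all genes tested. The rule fixed both changes, so this is a description of it. The count was 0 without either WT vein library or either WT fruit library, when 0 of all genes tested were called as well and 195 to 197 members were at an unadjusted p under 0.05. It also fell without either CsIND-RNAi fruit library, as did the count over all genes tested. The fruit libraries themselves were 2-fold or more apart for 8 members, glutathione S-transferase zeta and stachyose synthase among them. That is 4.0% of the members, beside 0.389% of the genes inside the limits and 9.03% of all genes tested.

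**Figure D2:**
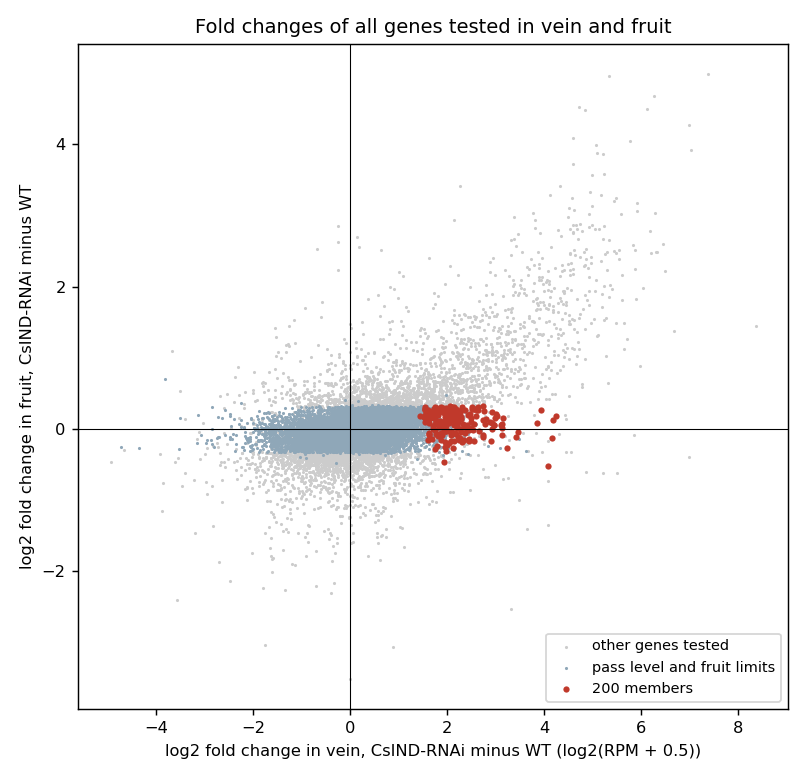
Log2 fold change, CsIND-RNAi minus WT on the log2(RPM + 0.5) scale, in vein (horizontal) and fruit (vertical) for the 17778 genes tested, with the 12332 genes inside the limits of the rule in blue-grey and the 200 members in red. The members form the right end of the flat band, from 1.45 to 4.25 in vein and from -0.51 to 0.33 in fruit, and many genes further right lie above the band.

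Set against fruit, most members were genes that WT vein expressed less than fruit did. Both WT vein libraries were below all 4 fruit libraries for 183 members (91.5%), against 69.9% of the genes inside the limits. A low WT vein level raises a gene's rank, so the rule favours this. These levels are RPM without TMM factors, which scale libraries for RNA composition. The factors were 0.804 and 0.838 for WT vein and 1.09 to 1.14 for fruit, so with them WT vein would lie higher relative to fruit. The median WT vein level was 0.433 times the WT fruit level for the members and 0.691 times for the genes inside the limits, and 108 members (54.0%) averaged under 10 RPM in WT vein, against 20.4% of those genes. In CsIND-RNAi vein the members' median was 1.81 times the WT fruit level. For 115 members (57.5%) WT vein lay below and CsIND-RNAi vein above all 4 fruit libraries, beside 6.47% of all genes tested and 5.36% of the genes inside the limits. With WT vein below fruit, CsIND-RNAi vein fell within or partly within the fruit range for 49 members (24.5%, near the 22.4% of the genes inside the limits), and it stayed below all fruit libraries for 19 (9.5%, against 42.1%). Ranking by the vein rise favours the first of these classes, so nothing is read from the shares.

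The widest gap to fruit was that of Csa4G001950, sucrose synthase, which splits sucrose for use in sink tissues. It was at 87.1 and 103 RPM in CsIND-RNAi fruit and 104 and 108 RPM in WT fruit, 2.21 and 2.55 RPM in WT vein and 18.9 and 9.22 RPM in CsIND-RNAi vein, a rise that still left it far below fruit. Only 2 members were higher in both WT vein libraries than in all fruit libraries, against 15.7% of the genes inside the limits. One was Csa7G253780, polyol/monosaccharide transporter 5, a sugar importer of the plasma membrane, at 11.2 and 12.7 RPM in WT vein, 44.97 and 83.9 RPM in CsIND-RNAi vein and 7.99 and 10.3 and 10.7 and 10.1 RPM in CsIND-RNAi and WT fruit. The other, Csa2G384430, has no annotation and was at 15.1 and 14.99 RPM in WT vein and 46.0 and 102 RPM in CsIND-RNAi vein.

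**Figure D3:**
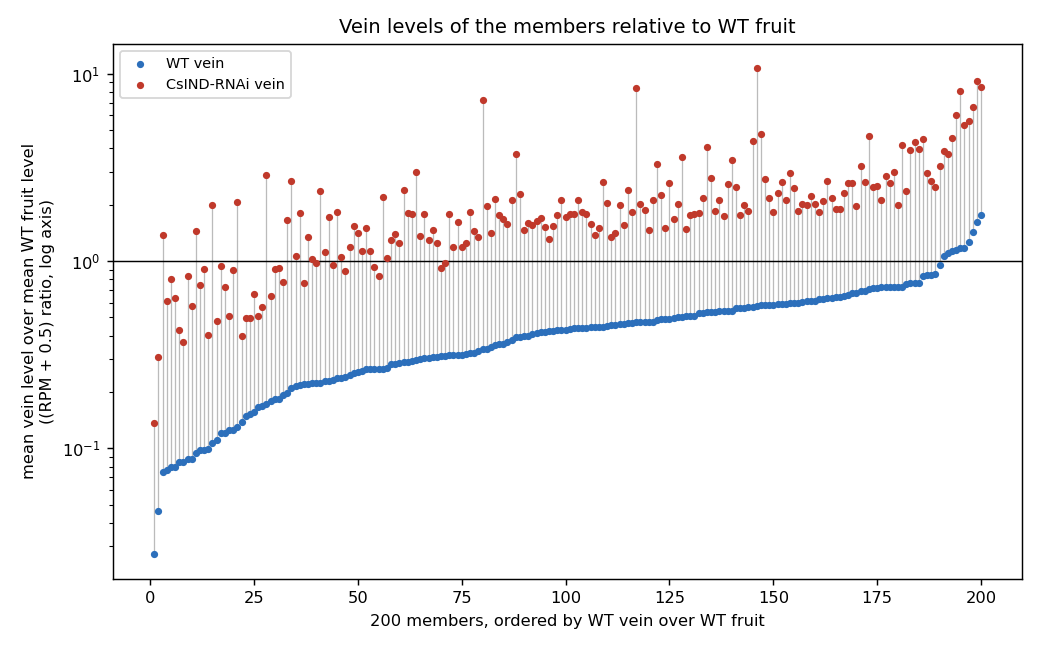
Mean vein level of each member over its mean WT fruit level (ratio of RPM + 0.5, log axis), blue for WT vein and red for CsIND-RNAi vein, with members ordered by the WT value and a line at equality. The WT points lie below the line for 190 members (95%), beside 77.84% of the genes inside the limits. The CsIND-RNAi points lie above it for 165 members (82.5%), beside 33.95% of those genes. Ranking by the vein rise favours both.

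Annotations of Arabidopsis matches, read from the study's tables, were held for 168 members. Words in them placed 95 members in 13 groups. Another 73 had an annotation outside these groups, 13 of them naming a domain of unknown function, and 32 had none. Of the members, 177 are in the part held of the study's table of genes raised in vein. The other 1822 genes of that table serve as a comparison of group sizes, with no test. Genes without an annotation, 16.0% of the members and 9.71% of the 1822, stay in each share. They lower the members' shares more. Protein turnover made up 7.5% of the members and 5.05% of those genes, cell wall 3.5% and 2.14%, and membrane traffic 3.0% and 1.59%. Defence proteins made up 1.0% and 3.46%, kinases and receptors 7.5% and 10.2%, and transcription regulators 6.0% and 10.1%. Oxidation and detoxification made up 8.5% and 9.60%, transport 3.0% and 5.21%, lipid metabolism 3.0% and 3.13%, and hormone genes 2.5% and 1.48%. Secondary metabolism made up 1.0% and 2.03%, calcium signalling 0.5% and 2.63%, and chaperones 0.5% and 2.14%. The rule sets the direction of every group, so the groups are described by the levels of their members.

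Oxidation and detoxification had the most members of the word groups, 17, a share no larger than among the other genes of that table, and a median log2 fold change in vein of 2.28. It held 5 cytochromes P450, haem enzymes that oxidise many small molecules, and 3 glutathione S-transferases, which join glutathione to reactive compounds. Csa3G825080 and Csa3G825090, annotated as CYP72A8 and CYP72A7, are neighbours in identifier order. Csa3G825080 was at 93.8 and 64.4 RPM in CsIND-RNAi vein and 10.6 and 10.8 RPM in WT vein, and at 20.4 and 28.1 and 23.5 and 20.1 RPM in CsIND-RNAi and WT fruit. Csa3G825090 was at 111 and 81.5 RPM and 12.9 and 14.8 RPM in the vein of CsIND-RNAi and WT, and at 24.7 and 28.5 and 30.7 and 27.1 RPM in fruit. Both thus moved by nearly the same factor in vein, with log2 fold changes of 2.80 (standard error 0.23, n = 2 per group) and 2.74 (standard error 0.18, n = 2 per group), and reads of such close neighbours may be split between them. Csa5G152170 encodes respiratory burst oxidase F, an NADPH oxidase that makes superoxide at the plasma membrane, and was at 68.6 and 103 RPM in CsIND-RNAi vein and 20.8 and 22.5 RPM in WT vein.

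Ubiquitin and protein turnover held 15 members with a median log2 fold change of 2.13. Ubiquitin-conjugating enzymes and ligases tag proteins for the proteasome, while aspartyl and cysteine proteases cut proteins in vacuoles and walls. Csa5G503560, a peptidase of family M1, was at 26.3 and 12.2 RPM in CsIND-RNAi vein and 1.60 and 2.31 RPM in WT vein, with 23.2 and 43.1 and 35.1 and 28.2 RPM in CsIND-RNAi and WT fruit. Csa3G840450, RING domain ligase 1, a ubiquitin ligase, was at 48.2 and 42.3 RPM and 8.07 and 9.40 RPM in the vein of CsIND-RNAi and WT. Csa1G022490, a secreted-type aspartyl protease by its family, was at 198 and 185 RPM in CsIND-RNAi vein, against 23.8 and 42.8 RPM in WT vein. Its WT vein libraries were unusually far apart for this set, and its fruit libraries (16.8 and 34.7 and 15.2 and 25.8 RPM) differed more between replicates than between genotypes. Csa2G249900, a papain-type cysteine protease, had one of the highest levels, at 567 and 502 RPM in CsIND-RNAi vein, 186 and 160.0 RPM in WT vein and 248 and 316 and 308 and 274 RPM in CsIND-RNAi and WT fruit.

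Chlorophyll breakdown and senescence genes were grouped after their values were seen, and 4 members carry such annotations. Csa5G156180 is annotated as non-yellowing 1, which in Arabidopsis removes magnesium from chlorophyll, and was at 57.9 and 51.5 RPM in CsIND-RNAi vein and 10.01 and 11.5 RPM in WT vein. Csa7G420790 encodes pheophytinase, which acts next and removes the phytol tail, and was at 60.9 and 61.2 RPM in CsIND-RNAi vein, against 17.4 and 16.8 RPM in WT vein. Its CsIND-RNAi vein libraries were among the 3 closest pairs of all members. In fruit these genes stood at 47.2 and 61.2 and 52.3 and 45.1 RPM (Csa5G156180) and at 36.3 and 45.7 and 35.9 and 32.7 RPM (Csa7G420790) in CsIND-RNAi and WT. Csa7G398090, senescence-associated gene 21, a small late-embryogenesis-type protein, was at 492 and 194 RPM in CsIND-RNAi vein and 45.1 and 45.9 RPM in WT vein. Csa2G351820, gamma vacuolar processing enzyme, a protease that matures vacuolar proteins, was at 260.5 and 351 RPM in CsIND-RNAi vein and 62.4 and 63.4 RPM in WT vein. The rule took the 2 chlorophyll breakdown genes as raised in vein, and the study listed the 25 photosynthesis genes given above as lowered. Both directions were thus fixed in advance, no test links them, and nothing is read from the contrast.

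Sugar metabolism and transport, also grouped after the values were seen, has 7 members, among them stachyose synthase, sucrose synthase and polyol/monosaccharide transporter 5, described above. Csa6G188010, alpha-glucan phosphorylase 2, which releases glucose phosphate from glucans in the cytosol, was at 141 and 81.3 RPM in CsIND-RNAi vein and 21.3 and 22.1 RPM in WT vein. Csa1G266170, sugar transporter protein 7, was at 10.1 and 12.01 RPM and 2.21 and 2.07 RPM in the vein of CsIND-RNAi and WT, and at 9.79 and 12.6 and 10.2 and 9.18 RPM in fruit. CsaUNG019690, sugar transporter 14, was at 27.3 and 18.96 RPM in CsIND-RNAi vein and 6.08 and 6.51 RPM in WT vein. Csa4G052620, an epimerase that turns UDP-glucose into UDP-galactose, was at 109 and 234 RPM in CsIND-RNAi vein replicates 1 and 2 and 39.9 and 36.8 RPM in WT vein. Of the 7, stachyose synthase, the polyol transporter, sugar transporter protein 7 and the epimerase were higher in CsIND-RNAi vein replicate 2, the others in replicate 1. The transport group also held Csa1G024880, a MATE efflux carrier, at 8.41 and 7.74 RPM in CsIND-RNAi vein and 1.66 and 1.93 RPM in WT vein, close to its 4.84 and 8.23 and 7.01 and 6.48 RPM in CsIND-RNAi and WT fruit.

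Callose is a glucan laid down at sieve plates, at plasmodesmata and at sites of attack. Csa7G429550, callose synthase 1, was at 455 and 220.0 RPM in CsIND-RNAi vein, 54.5 and 63.01 RPM in WT vein and 153 and 226 and 193 and 184 RPM in CsIND-RNAi and WT fruit. The adjacent Csa7G429560, glucan synthase-like 3, was at 39.5 and 10.01 RPM in CsIND-RNAi vein and 2.87 and 2.22 RPM in WT vein, and reads of the pair may be shared. Csa6G366460, plasmodesmata callose-binding protein 3, was at 40.3 and 49.5 RPM in CsIND-RNAi vein and 13.8 and 14.6 RPM in WT vein. Replicate 1 was the higher CsIND-RNAi vein library for both synthases and replicate 2 for the binding protein. The cell wall group of 7 members had a median log2 fold change of 2.42. It included a further hydroxyproline-rich glycoprotein, Csa4G047980, at 21.8 and 18.96 RPM in CsIND-RNAi vein and 3.37 and 3.04 RPM in WT vein.

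The 12 transcription regulators had a median log2 fold change of 2.03, and 4 of them carry a NAC domain. Csa4G011770 is annotated as NAC83, which in Arabidopsis binds the vessel regulator VND7 and represses xylem vessel genes. It was at 37.97 and 35.1 RPM in CsIND-RNAi vein, 6.58 and 6.85 RPM in WT vein and 19.1 and 26.9 and 19.8 and 24.8 RPM in CsIND-RNAi and WT fruit, so the replicates were close, with WT vein below and CsIND-RNAi vein above all fruit libraries. Csa3G902190, a PLATZ zinc-binding factor, was at 84.2 and 71.4 RPM and 14.4 and 11.6 RPM in the vein of CsIND-RNAi and WT. Csa3G278920, a LOB domain protein, was at 41.3 and 12.1 RPM in CsIND-RNAi vein replicates 1 and 2 and 2.32 and 2.41 RPM in WT vein, against 45.4 and 30.5 and 32.1 and 32.1 RPM in CsIND-RNAi and WT fruit. Csa3G180430, a homeodomain protein that the study ties to ANTHOCYANINLESS2, was at 13.2 and 33.97 RPM in CsIND-RNAi vein and 2.87 and 1.93 RPM in WT vein. These 2 members moved unequally in the CsIND-RNAi vein libraries, the LOB domain gene with replicate 1 higher and the homeodomain gene with replicate 2 higher.

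Kinases and receptors gave 15 members with a median log2 fold change of 2.01. Csa4G290170, annotated as receptor-like protein kinase 1, was at 19.3 and 12.9 RPM in CsIND-RNAi vein and 2.10 and 2.46 RPM in WT vein. Csa6G356490, a protein kinase, was at 208 and 206 RPM and 48.4 and 49.03 RPM in the vein of CsIND-RNAi and WT, with replicates nearly equal in both. Csa4G129570, a receptor-like kinase with a malectin domain, a family with members that sense the cell wall, was at 61.2 and 29.97 RPM in CsIND-RNAi vein and 7.13 and 8.24 RPM in WT vein. Csa4G355130, an EF-hand protein and the single member under calcium signalling, was at 201 and 188 RPM in CsIND-RNAi vein and 57.3 and 50.96 RPM in WT vein.

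Genes with a role in immunity were put together after their values were seen, and 5 members fit, respiratory burst oxidase F among them. Csa3G651750 is annotated as PEP1 receptor 1, which in Arabidopsis binds danger peptides released from wounded cells. It was at 7.49 and 9.11 RPM in CsIND-RNAi vein and 1.88 and 1.16 RPM in WT vein, below its 23.4 and 25.2 and 23.6 and 22.98 RPM in CsIND-RNAi and WT fruit. Csa6G125250, flavin-dependent monooxygenase 1, makes the mobile immune signal N-hydroxypipecolic acid in Arabidopsis and was at 91.9 and 55.7 RPM in CsIND-RNAi vein, 12.99 and 15.4 RPM in WT vein and 176 and 215 and 185 and 160.1 RPM in CsIND-RNAi and WT fruit. For these genes fruit of either genotype was the highest tissue. Csa6G490090, methyl esterase 1, which in Arabidopsis frees salicylic acid from its methyl ester, was at 66.9 and 33.9 RPM in CsIND-RNAi vein and 7.02 and 7.52 RPM in WT vein. Csa4G045070, MAP kinase 7, was at 54.4 and 22.4 RPM in CsIND-RNAi vein and 6.14 and 5.88 RPM in WT vein. Only 2 members came under defence proteins. Csa1G267230, a glycosyl hydrolase with a chitinase insertion domain, was at 77.2 and 21.9 RPM in CsIND-RNAi vein replicates 1 and 2 and 3.87 and 4.68 RPM in WT vein, and Csa1G043200, a Kunitz-type protease inhibitor, at 26.9 and 21.9 RPM and 5.69 and 6.03 RPM.

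Hormone synthesis and response held 5 members, methyl esterase 1 and 4 auxin genes that the study also lists. Csa3G000170, an auxin efflux carrier, was at 91.7 and 85.5 RPM in CsIND-RNAi vein, against 23.1 and 22.2 RPM in WT vein. Its CsIND-RNAi fruit libraries were nearly 3-fold apart, at 36.5 and 105 RPM, with 88.99 and 81.9 RPM in WT fruit. Csa3G119760, a GH3 protein, of the family that joins auxin to amino acids, was at 164 and 159 RPM in CsIND-RNAi vein, 48.7 and 49.6 RPM in WT vein and 59.5 and 140.2 and 78.4 and 82.9 RPM in CsIND-RNAi and WT fruit. For both genes the vein libraries of a genotype were nearly equal. The SAUR genes, named for their early rise after auxin, were low. Csa7G448680 was at 6.40 and 5.004 RPM in CsIND-RNAi vein and 1.22 and 0.868 RPM in WT vein, the lowest vein level of all members, and Csa6G137590 at 9.22 and 10.5 RPM and 2.38 and 2.75 RPM.

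Membrane traffic held 6 members. Csa6G524660, a remorin, a protein of plasma membrane nanodomains, was at 53.8 and 41.8 RPM in CsIND-RNAi vein, 4.81 and 6.27 RPM in WT vein and 83.3 and 83.0 and 80.4 and 69.9 RPM in CsIND-RNAi and WT fruit. Csa6G020110, a regulator of Vps4 in the multivesicular body pathway, which sorts membrane proteins for the vacuole, was at 100.5 and 74.1 RPM in CsIND-RNAi vein and 14.5 and 14.7 RPM in WT vein. Lipid words placed 6 members, among them Csa1G651710, a phosphatidylethanolamine-binding protein of the family of flowering regulators, at 28.5 and 26.3 RPM in CsIND-RNAi vein and 3.87 and 5.06 RPM in WT vein. Csa5G179220, an alpha/beta-hydrolase, was at 18.1 and 37.2 RPM in CsIND-RNAi vein and 2.82 and 4.15 RPM in WT vein, with replicate 2 the higher. The second glycosyltransferase, Csa4G618510, adjacent to the highest ranked member, was at 14.5 and 18.6 RPM in CsIND-RNAi vein, against 3.21 and 2.41 RPM in WT vein, a far smaller rise than its neighbour's.

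Phosphate genes form a pair noticed after the values were seen. Csa5G172890, phosphate starvation-induced gene 3, was at 221 and 208 RPM in CsIND-RNAi vein and 50.4 and 43.7 RPM in WT vein, and Csa6G517350, phosphate 2, which in Arabidopsis limits phosphate uptake by tagging transporters with ubiquitin, at 46.2 and 26.7 RPM and 8.24 and 9.01 RPM. Among the remaining members Csa2G033330, a DnaJ-domain chaperone, was at 159 and 82.4 RPM in CsIND-RNAi vein, 11.9 and 13.2 RPM in WT vein and 116 and 136 and 137 and 129 RPM in CsIND-RNAi and WT fruit. Csa6G154500, annotated as an aluminium-induced protein with YGL and LRDR motifs, had the third highest mean in CsIND-RNAi vein, at 515 and 428 RPM beside WT vein levels of 67.0 and 69.2 RPM and 51.6 and 72.3 and 65.0 and 51.7 RPM in CsIND-RNAi and WT fruit. WT vein and fruit overlapped for it, so CsIND-RNAi vein alone stood apart.

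The replicate libraries of CsIND-RNAi vein agreed less than those of WT vein for these genes too. The ratio of the higher to the lower CsIND-RNAi vein library had a median of 1.31 and reached 9.31, while the WT vein ratio had a median of 1.10 and reached 1.78. Replicate 1 was the higher for 152 members (76.0%), against 66.3% of the genes inside the limits. The libraries were over 2-fold apart for 33 members (16.5%), near the 14.9% of all genes tested and against 9.63% of the genes inside the limits. Of the 33, 27 had replicate 1 higher and 6 had replicate 2 higher. Replicate 1 is also the library with the lowest summed photosynthesis genes, 3244 against 18122 RPM in replicate 2, and the part that this has in the order was not tested.

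The widest pairs all had replicate 1 higher. Csa7G414470, a Rossmann-fold protein that binds NAD(P), was at 72.3 and 7.32 RPM in CsIND-RNAi vein and 1.66 and 1.69 RPM in WT vein. Csa2G308350, a WD40 repeat protein, was at 754 and 103 RPM and 24.2 and 26.6 RPM, and Csa1G008570, an SPFH/Band 7 membrane protein, at 258 and 40.2 RPM and 9.78 and 12.5 RPM. With replicate 1 set aside, their replicate 2 libraries were 3.13 to 3.81 times the higher WT vein library, with 0.5 RPM added. The rule ranked the members by this same ratio, so a rise here was fixed in advance. At the other end, Csa2G380000, a RAN GTPase, which drives transport through nuclear pores, was at 368 and 368 RPM in CsIND-RNAi vein and 122 and 130.2 RPM in WT vein. Csa3G008880, with no annotation, was at 38.8 and 38.98 RPM and 10.7 and 11.7 RPM. 

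**Figure D4:**
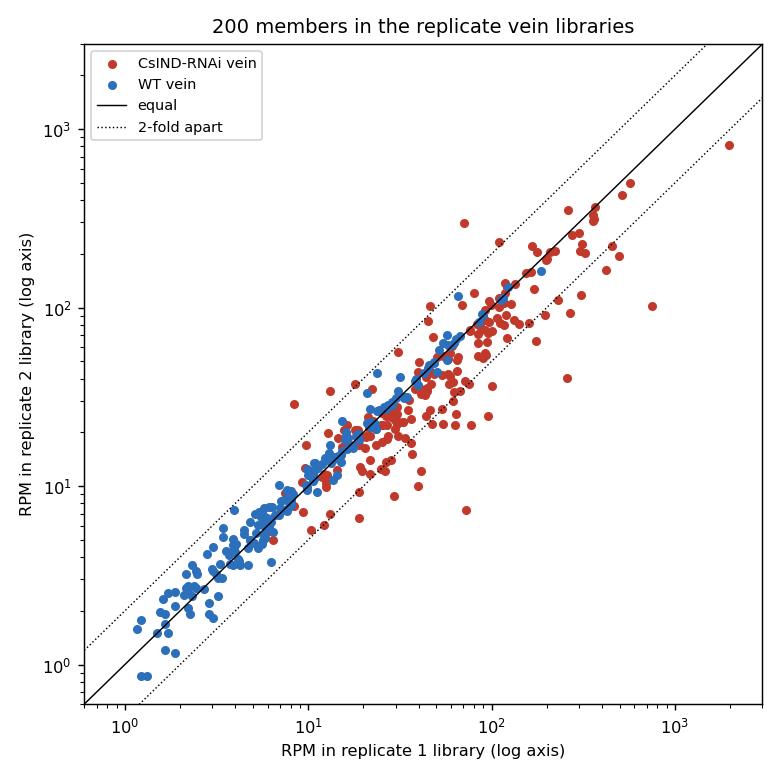
RPM of the 200 members in replicate 1 (horizontal) and replicate 2 (vertical) vein libraries, log axes, red for CsIND-RNAi and blue for WT, with lines at equality and at 2-fold. No WT point and 33 CsIND-RNAi points lie outside the 2-fold lines, 27 of them below.

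Which genes are picked depends on the library. When the rule was applied to the replicate 1 libraries alone, 79 of its 200 genes were members, and with the replicate 2 libraries alone 99 were. The genes so picked were then read in the replicate that had no part in choosing them, 1 library per group, which allows no test. Most of the genes so picked are not members, and genes read in 1 library per group are not replicates. The values thus describe the picked genes in those libraries alone. Genes picked from replicate 1 had a median log2 vein ratio of 1.63 in replicate 2, with 195 of 200 higher in CsIND-RNAi and 160 at least 2-fold higher, against a median of 0.06 and 7.05% at least 2-fold higher among the 10971 genes inside the limits. Genes picked from replicate 2 had a median of 1.97 in replicate 1, with 186 higher and 167 at least 2-fold higher, against a median of 0.30 and 13.1% among 11793 genes.

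Among the genes so picked, the flat fruit level carried over less often than the vein rise. Of the genes picked from replicate 1, 93 (46.5%) met the fruit limit in replicate 2, against 87.7% of the genes inside the limits, and 98 were above the limit in CsIND-RNAi while 9 were below it. Of those picked from replicate 2, 112 (56.0%) met the limit in replicate 1, against 81.6%, with 49 above and 39 below.

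**Figure D5:**
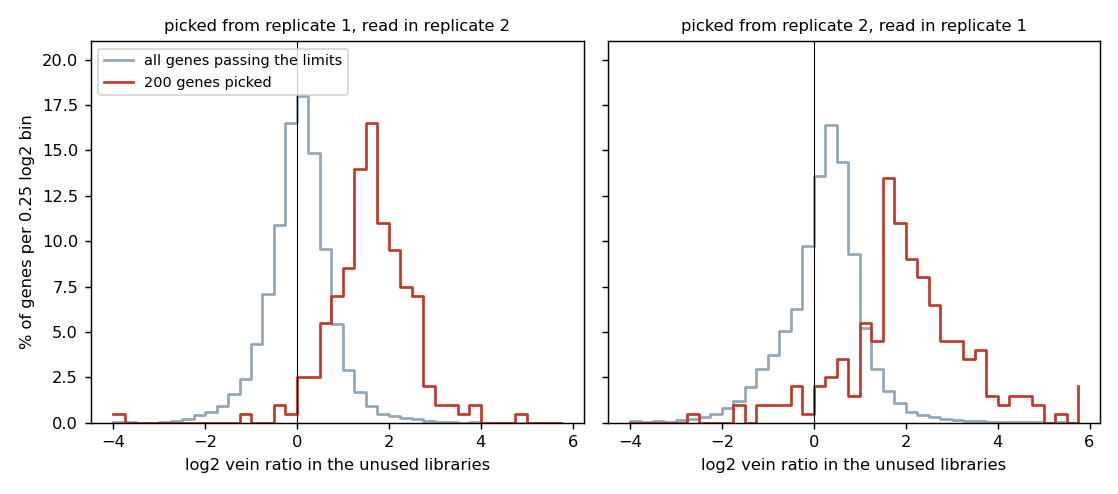
Log2 ratio of CsIND-RNAi to WT vein in the replicate not used for picking, as the percent of genes per 0.25-wide bin, for the 200 genes picked from the other replicate (red) and all genes inside the limits (blue-grey), with values beyond the axis set in the end bins. The red curves centre on 1.63 and 1.97, the blue-grey curves on 0.06 and 0.30.

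By their identifiers, which number genes along each chromosome, the members lie on all 7 chromosomes, from 16 on chromosome 7 to 47 on chromosome 3, and 2 are unplaced. Their shares follow those of the genes inside the limits (23.5% against 20.8% on chromosome 3, 8.0% against 9.76% on chromosome 7), with no test. Another member stood within 5 places, in the order of the table's identifiers, for 31 of 198 placed members (15.7%), against 10% of the other placed genes inside the limits. These 31 fall in 15 clusters with 10 pairs of immediate neighbours, as far as the genes of the table show. Adjacent pairs of like annotation were the P450 genes, the glycosyltransferases, the callose synthases and the hydroxyproline-rich glycoproteins given above, the glutathione S-transferases TAU 8 Csa4G303160 and Csa4G303170, and the copper amine oxidases Csa5G158570 and Csa5G158580. Copper amine oxidases break down polyamines and release hydrogen peroxide. Csa5G158580 was at 304 and 208 RPM in CsIND-RNAi vein and 57.2 and 69.8 RPM in WT vein, and Csa5G158570 at 63.1 and 21.9 RPM and 5.58 and 4.72 RPM. Near copies can share reads, so the level of each gene of a pair is less certain than their sum.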

How the data were processed

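From paired-end reads of directional libraries, the authors made RPM values (reads per 1000000 reads counted on genes) with TopHat for mapping to version 2i of the cucumber genome and HTSeq for counting, and deposited them for 17783 genes in 8 libraries. The tools' versions are not given in the sources used here. Divided by the worth of 1 read, 100% of the values came out whole to within 0.05, and the recovered reads numbered 18088985 to 22979345 per library. Intervals and floors cover counting error only. From the deposited RPM values, log2(RPM + 0.5) was fitted with limma 3.58.1 in R 4.3.3, with 1 mean for each of 4 groups and 17778 genes (at least 1 RPM in at least 2 libraries), and p-values were adjusted by Benjamini-Hochberg over them. Calls needed an adjusted p under 0.05 and, within a tissue, a change of 2-fold or more. The fit was also run on simulated counts that had the same spread in all 4 groups. That run says nothing about the wider spread of the CsIND-RNAi vein libraries. With 2 libraries on each side the smallest exact two-sided p is 0.333.

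The alternatives were pseudocounts of 0.1 and 1, no filter and a stricter one (15880 genes), TMM factors, quantile normalization, 3 tests on the recovered reads (the quasi-likelihood and exact tests of edgeR 4.0.16, and DESeq2 1.42.0), a fit per tissue, a replicate block, leaving out each library, and 19 changes of the rule. On all genes tested, edgeR's quasi-likelihood test called 1334 higher in CsIND-RNAi vein and DESeq2 1975, against 2494 with limma. The members and lists were chosen with earlier results of these data known. Named were the 10 highest ranked members, the 2 members and 2 other genes on either side of the limit, the 3 highest ranked of each word group, the 3 highest means in CsIND-RNAi vein, the 3 widest and 3 narrowest CsIND-RNAi vein pairs, and members with an identifier in the study's tables; the words of the groups were refined, and other genes added, after values were seen. Columns with the authors' own fold changes were not used. Of 23999 genes in the RefSeq table, 0 matched the identifiers, so no sequences are printed.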

Additional observations from a re-analysis of the deposited data

Results flagged for a closer look

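The change in vein was called different from the change in fruit for 183 of 200 members (limma, adjusted p under 0.05), beside 11.4% of all genes tested. It is listed because the change was compared between tissues. The rule asked for exactly this difference in these same libraries, so the count describes how the members were chosen and is no evidence of a difference. It was 0 without any one of the 4 WT libraries and 0 with the replicate block, when 0 of all genes tested were called as well. No group had enough libraries to look for a single library far from the others.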

How the results depend on the processing

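Under the alternative fits that kept every library, all 200 members stayed called higher in CsIND-RNAi vein except with edgeR's quasi-likelihood test (185) and a separate fit per tissue (188). These called 7.50% and 9.40% of all genes tested in that direction, against 14.0% in the fit used above. Some members also lost the call without single libraries. No member was called in fruit under any alternative. The median log2 fold change of the members in vein was 2.08 and ranged from 1.88 to 2.21 without single libraries. It was 1.84 with TMM factors and 1.78 with quantile normalization, which also moved the median of all genes tested from 0.20 to -0.04 and -0.09, so relative to all genes the members moved little. The median in fruit, 0.13, ranged from 0.03 to 0.21 without single libraries. The count of members called for the tissue difference, 183, was 150 or more under the other fits that kept every library and had no block. In those fits 1760 to 3393 of all genes tested were called. Without single libraries it moved widely, as did the count over all genes tested, so nothing is read from it. At the thresholds used, 24 of 1007 single-gene values of named genes lost their call, all in the same direction as before, for stachyose synthase, Csa7G414470, Csa2G308350, Csa1G008570, Csa1G267230, Csa3G278920, Csa3G180430, Csa3G000170 and Csa3G119760.

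Replicate numbers are shared between groups, but same-numbered libraries deviated together with a correlation of only 0.14 in fruit and -0.11 in vein, so the numbers are not taken to pair them. With the replicate block 200 members stayed called in vein and 0 were called for the tissue difference, where 0 of all genes were called and 200 members were at an unadjusted p under 0.05. With the vein numbers crossed, added after seeing the data, the block called 200 members in vein and 141 for the tissue difference. Of all 17778 genes tested it called 2461 higher in CsIND-RNAi vein and 831 for the tissue difference.

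The membership itself depends on the limits. Of the 200 members, 86 were kept with a fruit limit of about 0.9 either way, 116 with one of 0.67, 17 with no fruit limit, 79 when picked from replicate 1 and 99 from replicate 2. Between 103 (without CsIND-RNAi vein replicate 2) and 178 were kept when a single library was left out, and 134 to 190 under the other changes. In all 19 changes 5 members were kept. The cause was not tested. With 2 libraries a group, the spread behind each value rests on few libraries, and the fit assumes 1 spread per gene although the CsIND-RNAi vein libraries were the furthest apart.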
